A study of Mus musculus with 13 samples.

Results

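Nefl, Nefm, Gap43, Tac1, Npy, Bex1 and Brinp3 are 7 genes best known from neurons that were followed here across mouse melanomas, melanocytic proliferations and sorted melanocytes, out of 19937 genes measured on 13 whole-transcript Affymetrix arrays. They were chosen by name because their levels differed widely between lesions or between melanocyte stages in these same arrays. Those differences are therefore given as descriptions with no test. Tested were the effect of Braf, which the reason for the choice does not name, and a wider set of neuronal genes. Every level below is log2(intensity + 1) of the gene's probe set with the highest mean, and each of the 7 genes was found on the arrays.

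The lesions were uncultured tissue. Cdkn2a/Braf/Lkb1 melanoma (2 arrays) and Cdkn2a/Braf melanoma (2 arrays) carried altered Cdkn2a and Braf, with altered Lkb1 added in the Cdkn2a/Braf/Lkb1 genotype. Lkb1/Braf melanocytic proliferations (3 arrays, specimens pooled per the labels) have no altered Cdkn2a in their label. Melanocytes purified by flow cytometry came from Cdkn2a/Braf animals at day 50, after growth arrest (2 arrays), from Cdkn2a/Braf animals at day 19, before it (2 arrays), and from Cdkn2a animals with wild-type Braf at day 19 (2 arrays), called Cdkn2a-only here. All groups but the Cdkn2a-only cells share the altered Braf, and all but the proliferations share the altered Cdkn2a. Lkb1 is the kinase encoded by Stk11, which restrains mTORC1 through AMPK. The labels do not give the driver that recombines the alleles, the strain, or the age of the animals with tumours. They call the samples of a group biological replicates but do not say whether they came from separate animals, so the spread may be partly technical.

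Neurofilaments are intermediate filaments of axons, assembled from the light chain Nefl, the medium chain Nefm, the heavy chain Nefh and, in many neurons, Ina or peripherin (Prph). Gap43 is a membrane-attached protein of growth cones that is made in growing and regenerating axons. Tac1 encodes the precursor of substance P and neurokinin A, and Npy the precursor of neuropeptide Y. Such peptides are cut from precursors in secretory granules and act on G protein-coupled receptors. Bex1 is a small X-linked adaptor protein of the Bex and Tceal family, and Brinp3 belongs to the Brinp family of secreted proteins made mainly in the nervous system. Melanocytes, Schwann cells and peripheral neurons all arise from the neural crest.

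The name "high in melanoma" held for 5 of the 7 genes. Nefl, Nefm, Gap43, Tac1 and Brinp3 were higher on each of the 4 melanoma arrays than on any of the other 9, which was so for 5.33% of all genes. Npy and Bex1 went against that name, since both were highest at day 19 in sorted melanocytes. Markers of the labelled cell type also differed among groups. The summed intensity of 12 melanocyte markers was 612 to 664 in Cdkn2a/Braf/Lkb1 melanoma, 706 to 1114 in Cdkn2a/Braf melanoma, 3494 to 3898 in the proliferations, 24583 to 32717 at day 50, 46146 to 49902 at day 19 and 51864 to 51889 in Cdkn2a-only cells. In whole tissue, fewer cells of a type and less RNA per cell cannot be told apart. Cdkn2a/Braf melanoma replicate 2 stood apart, with 6528 for the sum of 8 keratinocyte markers, against 533 in replicate 1. Xist was low (4.42 to 4.76) on all 4 melanoma arrays and high (10.47 to 10.98) on all 3 proliferation arrays, with the Y-linked gene Eif2s3y the other way round. The sex of the animals and the type of lesion therefore cannot be told apart in the comparison of melanomas with proliferations. Nor can the altered Cdkn2a, which the labels give for every melanoma and for no proliferation. The label of Cdkn2a/Braf melanoma also lacks the altered Lkb1 of the proliferations. Each day 19 group held 1 array with high Xist and 1 with low Xist, and both day 50 arrays had high Xist (9.57 and 9.95), so sex is unbalanced between day 50 and day 19. The day 50 arrays were also the least alike within a group. Their difference had an SD of 0.703 over genes, against 0.271 to 0.404 for pairs within the other groups. Their interquartile ranges, 1.94 and 1.93, were narrower than those of the day 19 Cdkn2a/Braf arrays, 2.58 and 2.54. Stk11 was 8.36 and 7.86 in Cdkn2a/Braf/Lkb1 melanoma, against 8.90 and 8.63 in Cdkn2a/Braf melanoma, which does not check the genotype, since where its probes lie relative to the altered part is not known here.

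Nefl and Nefm were the members of the filament network itself. Nefm reached 9.94 and 10.65 in Cdkn2a/Braf/Lkb1 melanoma and 9.88 and 7.33 in Cdkn2a/Braf melanoma, against 4.34, 4.34 and 4.07 in the proliferations. In sorted melanocytes it was 4.57 and 4.99 at day 50, 4.24 and 4.31 at day 19, and 4.22 and 4.24 in Cdkn2a-only cells. The lowest melanoma array thus lay above every other array, while the 9 other arrays stayed within a narrow band. Relative to the proliferations the mean of both melanoma groups was higher by 5.20 (SE 0.46), a 36.7-fold difference. Nefl was likewise high in the melanomas, with replicate 2 of Cdkn2a/Braf melanoma the lowest, at 8.43 and 9.60 in Cdkn2a/Braf/Lkb1 melanoma and 9.08 and 5.94 in Cdkn2a/Braf melanoma, against 4.74, 4.33 and 4.82 in the proliferations. Its sorted melanocytes lay between 4.23 and 4.76. The difference of the melanomas from the proliferations was 3.63 (SE 0.59), or 12.4-fold. These sizes moved by over 1.5 times with 1 array. Without Cdkn2a/Braf melanoma replicate 1 the differences from the proliferations were 4.56 for Nefm and 2.85 for Nefl, and without replicate 2 they were 5.83 and 4.42.

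Gap43, the growth cone protein, was above all other arrays in each melanoma. It stood at 10.24 and 11.50 in Cdkn2a/Braf/Lkb1 melanoma and 10.68 and 8.31 in Cdkn2a/Braf melanoma, against 6.82, 6.88 and 6.42 in the proliferations. Sorted cells had 6.99 and 6.98 at day 50, 6.26 and 6.31 at day 19, and 5.88 and 6.19 in Cdkn2a-only cells. No pair of neighbouring groups below the melanomas overlapped, but these steps were small beside the melanoma difference of 3.47 (SE 0.48) from the proliferations. That difference was 2.88 without Cdkn2a/Braf melanoma replicate 1 and 4.07 without replicate 2. The day 50 cells differed from day 19 cells by 0.70 (SE 0.62).

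Tac1 had the widest empty interval of the 7 genes between melanomas and all else. It was 9.12 and 8.68 in Cdkn2a/Braf/Lkb1 melanoma and 9.77 and 6.85 in Cdkn2a/Braf melanoma, and it never exceeded 3.78 on the other 9 arrays. The proliferations had 3.51, 3.47 and 3.38, where the lowest level of any probe set on these arrays was 2.12. The melanomas differed from the proliferations by 5.15 (SE 0.51, 35.6-fold). With 16 in place of 1 added to each intensity, the difference was 3.98. Whether the dim level in the proliferations limits its size was not tested. The difference was 4.42 without Cdkn2a/Braf melanoma replicate 1 and 5.88 without replicate 2.

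Npy was highest on the day 19 arrays, and its mean in the melanomas differed from the proliferations by -0.74 (SE 0.21). It was 6.14 and 7.28 in Cdkn2a/Braf/Lkb1 melanoma, 6.57 and 6.59 in Cdkn2a/Braf melanoma, and 7.07 and 6.96 in day 50 cells. Day 19 Cdkn2a/Braf melanocytes had 11.65 and 11.58, and Cdkn2a-only melanocytes 12.06 and 12.17. These last 4 arrays stood well above the other 9. The difference was -4.60 (SE 0.27) for day 50 against day 19, and -5.04 (SE 0.27) for Cdkn2a/Braf melanoma against day 19. The second of these contrasts sets tissue against sorted cells, so material and stage cannot be told apart in it. All 3 proliferation arrays carried one identical deposited value, 7.39, so their SD of 0 is no measure of spread.

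Bex1 was also lower at day 50 but not uniformly low in lesions. Day 50 cells had 3.33 and 2.91, day 19 Cdkn2a/Braf cells 8.42 and 8.04, and Cdkn2a-only cells 5.38 and 7.08. The difference of day 50 from day 19 was -5.11 (SE 0.55), and the day 50 levels were close to the dimmest levels on the arrays. With 16 in place of 1 added to each intensity this difference was -3.73. With arrays set to 1 interquartile range it was -5.72. Among the lesions Cdkn2a/Braf/Lkb1 melanoma had 6.49 and 8.06, Cdkn2a/Braf melanoma 5.29 and 4.94, and the proliferations 5.80, 5.72 and 5.91. The melanoma genotypes did not overlap and differed by 2.16 (SE 0.55). Bex1 lies on the X chromosome and, in both day 19 pairs, the array with high Xist had the higher Bex1, by 1.70 in Cdkn2a-only cells and by 0.38 in Cdkn2a/Braf cells. Both day 50 arrays had high Xist. Against the day 19 Cdkn2a/Braf array with high Xist alone (replicate 1), the day 50 difference of Bex1 was -5.29. A second probe set is shared between Bex4 and Bex1 and was left out.

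Brinp3 separated the melanoma genotypes from each other. It was 8.72 and 9.59 in Cdkn2a/Braf/Lkb1 melanoma and 5.15 and 6.07 in Cdkn2a/Braf melanoma. That was 3.54 higher (SE 0.33), or 11.7-fold. The proliferations had 4.87, 4.64 and 4.28, and sorted cells lay between 4.37 and 4.79, the day 50 pair having 1 identical value. The gap of Cdkn2a/Braf melanoma to the highest other array was only 0.28, while the lower Cdkn2a/Braf/Lkb1 array, at 8.72, stood well above the higher Cdkn2a/Braf array, at 6.07.

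**Figure D1:**
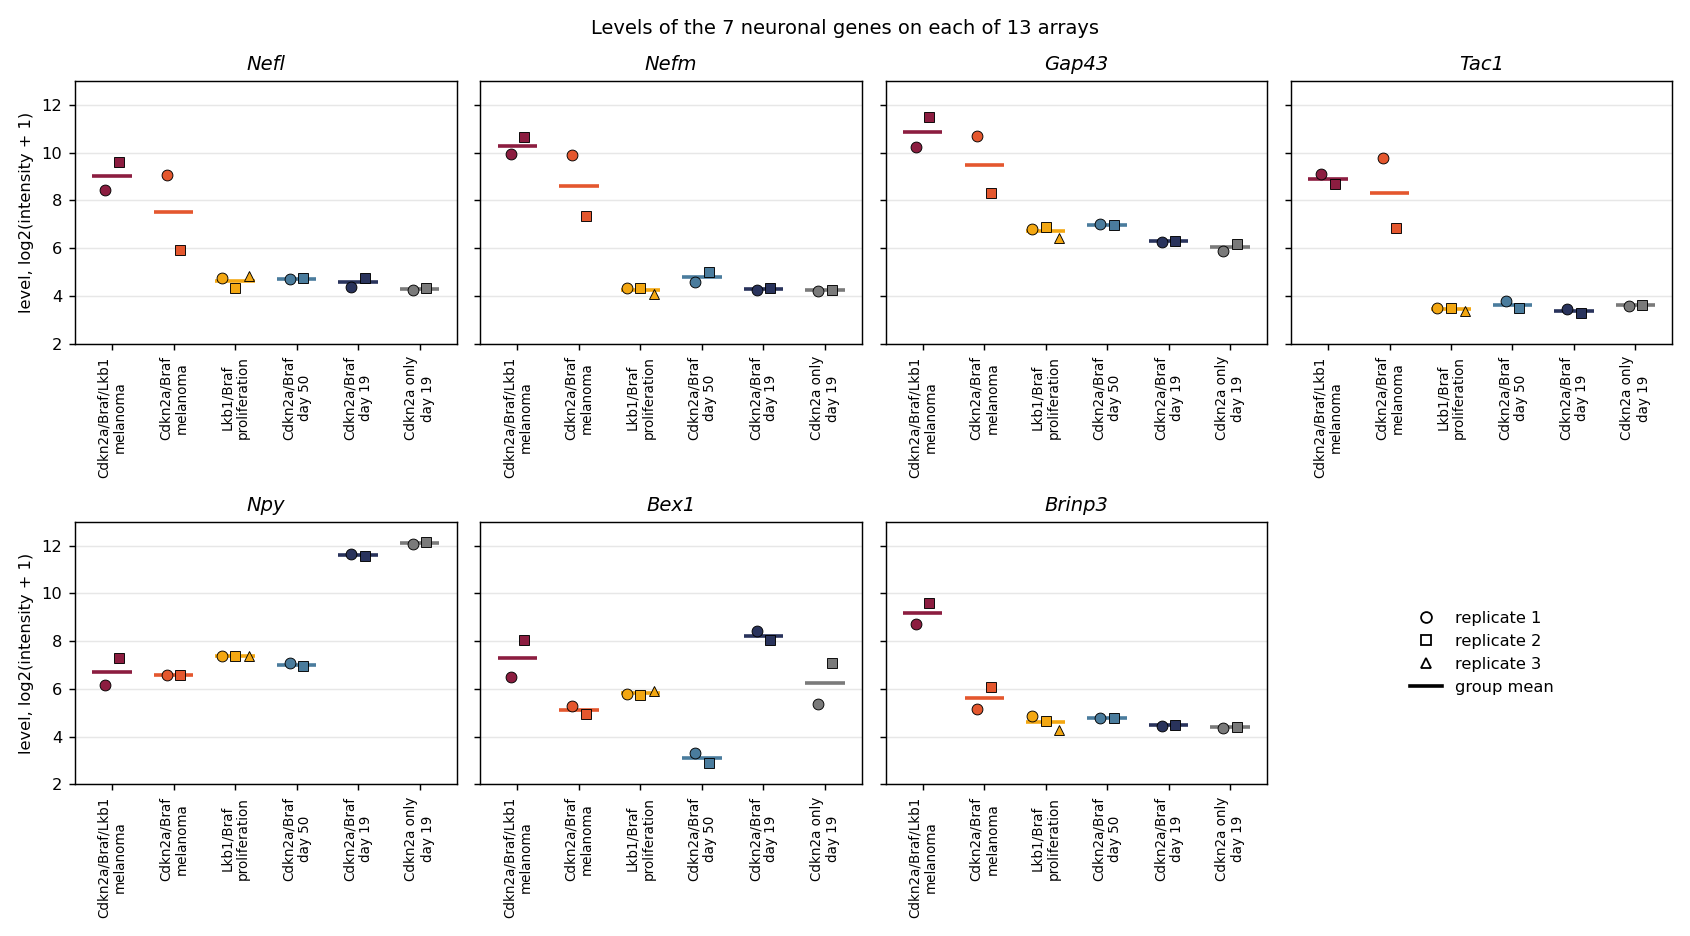
Log2(intensity + 1) of each of the 7 genes on every array (points) with the group mean (line), melanomas left and sorted melanocytes right. Tac1 and Nefm sit high on all 4 melanoma arrays, Npy at 11.58 to 12.17 on the 4 day 19 arrays, and Brinp3 is high mainly in Cdkn2a/Braf/Lkb1 melanoma.

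Start-site windows from RefSeq (GRCm38.p6) were matched for 4 of the 7 genes, namely Tac1, Npy, Bex1 and Brinp3, each covering 250 bases before and 50 after the start. They are printed for Tac1, the gene with the widest gap between melanomas and other arrays, and for Npy and Bex1, the genes highest at day 19, so that the sequences can be compared. Capitals mark CACGTG, a short palindrome recognised by many basic helix-loop-helix factors, Mitf among them; other letters are lower case. The windows are chr6:7554811-7555110 on the plus strand, chr6:49822460-49822759 on the plus strand and chrX:136215464-136215763 on the minus strand, in that order.
Tac1: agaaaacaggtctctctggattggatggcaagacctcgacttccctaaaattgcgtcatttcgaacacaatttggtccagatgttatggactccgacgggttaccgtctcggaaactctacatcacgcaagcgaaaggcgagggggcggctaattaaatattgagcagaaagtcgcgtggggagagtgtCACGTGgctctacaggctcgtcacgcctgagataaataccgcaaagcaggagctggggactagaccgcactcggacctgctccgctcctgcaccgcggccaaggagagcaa
Npy: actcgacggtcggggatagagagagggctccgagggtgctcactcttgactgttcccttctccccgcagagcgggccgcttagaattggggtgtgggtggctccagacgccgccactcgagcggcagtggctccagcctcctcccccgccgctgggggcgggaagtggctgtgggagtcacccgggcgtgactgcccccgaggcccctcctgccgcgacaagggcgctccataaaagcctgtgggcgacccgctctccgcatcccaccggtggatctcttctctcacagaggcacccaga
Bex1: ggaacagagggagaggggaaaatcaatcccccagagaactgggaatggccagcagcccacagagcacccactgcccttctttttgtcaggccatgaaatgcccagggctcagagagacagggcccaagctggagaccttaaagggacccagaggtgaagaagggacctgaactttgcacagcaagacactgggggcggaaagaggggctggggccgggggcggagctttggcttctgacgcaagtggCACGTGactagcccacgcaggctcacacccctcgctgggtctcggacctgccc
CACGTG begins 61 bases before the Tac1 start and 3 bases before the Bex1 start. It was present in 7.2% of 32851 RefSeq start windows. It was not found in the windows of Npy and Brinp3. Both strands were also searched for CATGTG, held by 14.2% of windows. A further search was for TGACTCA, held by 5.2%. The last was for TGACGT, held by 7.5%, and none of these matched in the windows of the 4 genes. A match is a description of letters and not a binding site.

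Nefl, Nefm, Gap43 and Tac1 share the contrast between melanomas and other arrays for which they were picked, and their correlations are taken over those same arrays. Pearson's r over the 13 arrays was 0.96 to 0.99 for each pair of these 4 genes, while Spearman's rho was 0.46 (Nefl and Tac1) to 0.93 (Nefm and Gap43). Within the Cdkn2a/Braf/Lkb1 melanoma pair, replicate 2 minus replicate 1 was 1.16 for Nefl, 0.71 for Nefm and 1.26 for Gap43 but -0.44 for Tac1. Pearson's r was 0.77 to 0.85 for Brinp3 with each of them. Npy ran against Nefl, Nefm, Gap43, Tac1 and Brinp3 (r of -0.45 to -0.60). Bex1 was near 0 with the filament genes (0.13 and 0.18) and 0.51 with Npy. These values share 13 arrays, 4 of them melanomas, and are descriptions.

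Nefl, Nefm, Gap43, Tac1 and Brinp3 spread most widely within the Cdkn2a/Braf melanoma pair, and Bex1 and Npy did not. Replicate 1 exceeded replicate 2 by 3.14 for Nefl, 2.92 for Tac1, 2.54 for Nefm and 2.38 for Gap43. Differences at least as wide were found for only 29, 41, 71 and 85 of the 19937 genes, in that order of the members. Brinp3 ran the other way by 0.91, and Npy differed by 0.02. The same pair differed in its cell markers. In replicate 1, 7 of 8 keratinocyte genes were lower by at least 1 and 3 of 4 skeletal muscle genes higher by at least 1. Schwann cell markers summed to 1458 in replicate 1 and 3120 in replicate 2. Of these 10 genes 3 were lower in replicate 1 by at least 1 (Cdh19, S100b and Erbb3), and the list median was -0.13. Cdh19 and Erbb3 were also high in day 19 Cdkn2a/Braf melanocytes (8.10 and 9.50, and 9.51 and 9.87). Krt20, of the Merkel cell list, was 7.52 in replicate 1 and 5.28 in replicate 2. The part of these cells in the members' difference was not tested. Without Cdkn2a/Braf melanoma replicate 2 the difference of Cdkn2a/Braf/Lkb1 melanoma from Cdkn2a/Braf melanoma was -0.07 for Nefl, -0.88 for Tac1, 0.19 for Gap43 and 0.42 for Nefm, against 1.50, 0.59, 1.38 and 1.69 with it. Without replicate 1 these were 3.08, 2.05, 2.57 and 2.96. Nefl and Tac1 thus changed sign with 1 array, and Nefm and Gap43 shrank to 0.42 and 0.19. With any 1 melanoma array left out, Brinp3 still differed by at least 3.09 and Bex1 by 1.38 to 2.95.

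**Figure D2:**
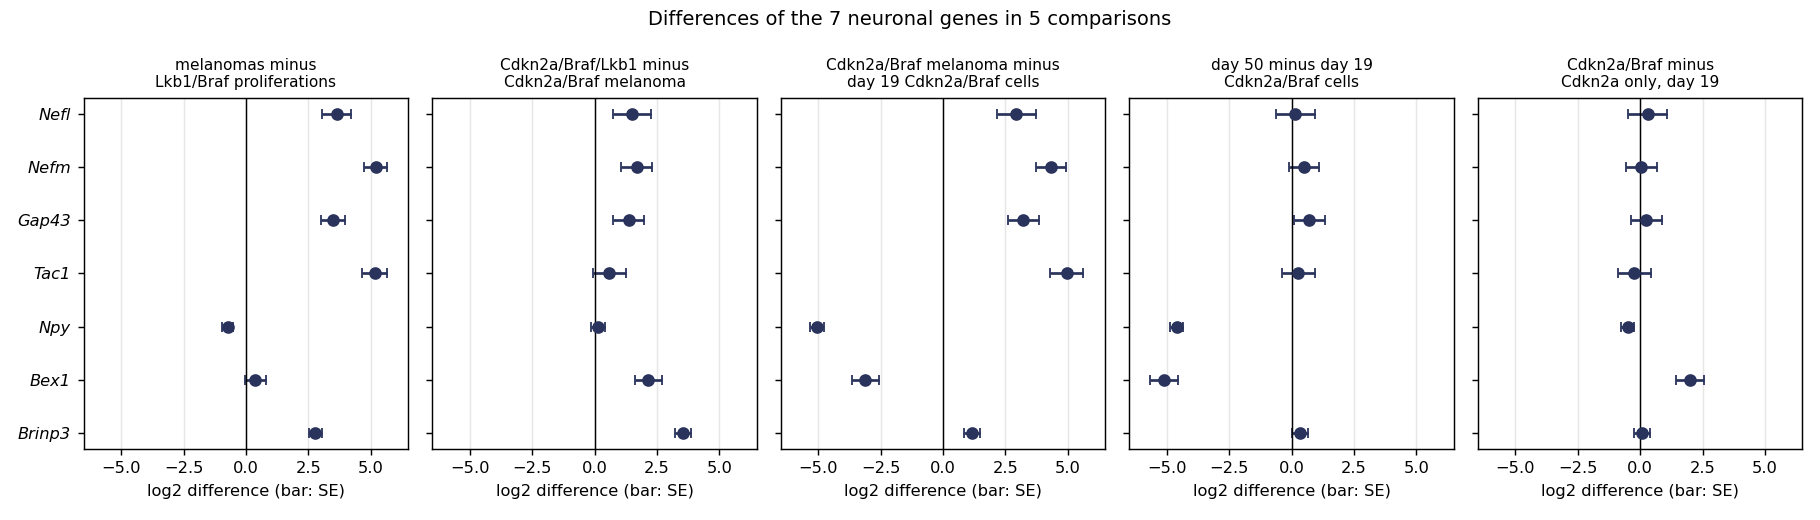
Differences of group means on the log2 scale with their SE for the 7 genes in each of the 5 comparisons. Nefm, Tac1, Nefl and Gap43 reach 3.47 to 5.20 for melanomas against proliferations, and Npy and Bex1 reach -4.60 and -5.11 for day 50 against day 19.

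The melanoma values were set beside the marker levels of neurons, Schwann cells, Merkel cells, keratinocytes and fibroblasts. The 8 measured markers of sensory or sympathetic neurons summed to 260 to 262 in Cdkn2a/Braf/Lkb1 melanoma and 300 to 336 in Cdkn2a/Braf melanoma, against 313 to 323 in the proliferations, 388 to 400 at day 50 and 288 to 317 in the day 19 groups, with none of the 8 above 6.44 on any array. Schwann markers (10 genes) summed to 552 to 841 and 1458 to 3120 in the 2 melanoma groups and to 1033 to 1141 in the proliferations. In sorted melanocytes the Schwann sum was 1775 to 2864 at day 50, 1624 to 2363 at day 19 and 1355 to 1755 in Cdkn2a-only cells. In the Merkel cell list, 2 of 9 genes rose and 1 fell in melanomas against proliferations (20.3% and 18.7% of all genes did). Its sum was 1758 to 2076 and 1466 to 1739 in the 2 melanoma groups, against 801 to 903. Piezo2 was 9.13 to 10.33 against 6.07 to 6.81 and Sox2 7.88 to 9.17 against 5.57 to 5.95. Krt8 was lower in the melanomas, at 7.17 to 7.78 against 8.57 to 8.74. Krt20 was 7.52 in Cdkn2a/Braf melanoma replicate 1 and 5.25 to 5.28 on the other melanoma arrays. In the proliferations Krt20 was 5.18 to 5.21. Atoh1, the defining transcription factor, was 4.93 to 5.29 in melanomas and 5.17 to 5.56 in the proliferations. Keratinocyte markers fell in all 8 of 8 genes. Fibroblast markers summed to 9886 to 12529 and 10040 to 10425 in the melanomas, against 9541 to 10987 in the proliferations. Of these 7 genes 3 were called higher and 2 lower. The part of these cells in the members' levels was not tested. The neuron sums of the melanomas lay below or across those of the proliferations.

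**Figure D3:**
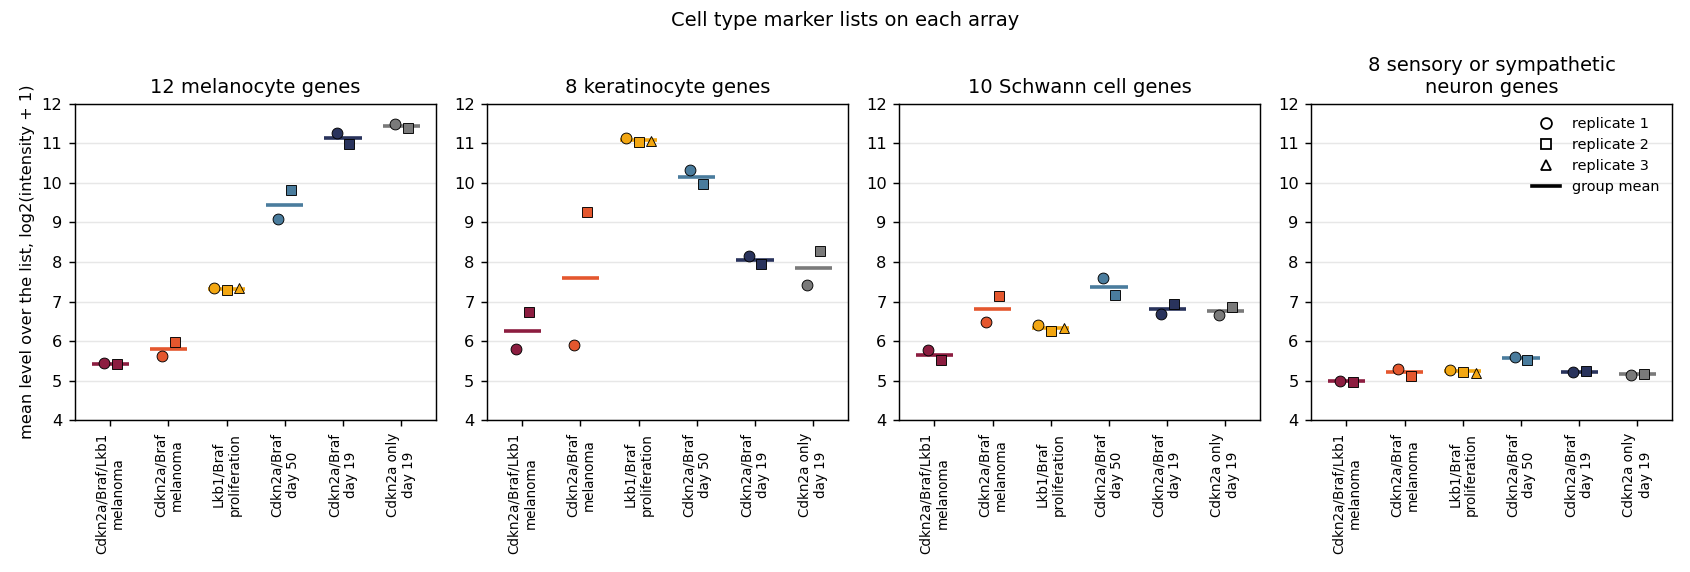
Mean level of each marker list, log2(intensity + 1), on every array (points) with the group mean (line), for melanocyte, keratinocyte, Schwann cell and neuron genes. The melanocyte mean is 5.41 to 5.98 on the melanoma arrays and at least 9.08 in sorted melanocytes, and the neuron mean stays between 4.96 and 5.61.

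Groups' arrays did not overlap for 6 of the 7 genes between day 50 and day 19 (70.7% of all genes), 3 between the melanoma genotypes (53.5%), 6 between melanomas and proliferations (45.5%) and 7 between Cdkn2a/Braf melanoma and day 19 (56.5%). The genes were chosen for such differences, so nothing is read from these counts.

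The altered Braf was the contrast in which the members could be tested, although its day 19 arrays are shared with the stage comparison. None of the 7 genes passed limma's test with Benjamini-Hochberg adjustment over all genes, and 0.291% of all genes did. Bex1 differed most between Cdkn2a/Braf and Cdkn2a-only cells at day 19, by 2.00 (SE 0.55, limma adjusted p = 0.284; unadjusted p = 0.00437), and was higher on both Cdkn2a/Braf arrays than on either Cdkn2a-only array. The Bex1 difference was 1.15 without Cdkn2a-only replicate 1 and 2.84 without Cdkn2a-only replicate 2 (limma adjusted p = 0.66 and 0.106). Npy differed by -0.50 (SE 0.27, limma adjusted p = 0.822). The other 5 genes differed by -0.23 to 0.30. The 7 genes had no overlap between the groups' arrays, against 40.6% of all genes; with 2 arrays a side that says little of any gene. By unadjusted p under 0.05, 1446 genes would be called (7.25%), and 1 of the 7 members. 

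The wider neuronal lists held 130 measured genes, which the rule for the 7 did not choose, and were set against the share of all genes called in the same direction. In melanomas against proliferations 22 rose and 23 fell, or 16.9% and 17.7%, beside 20.3% and 18.7% of all genes, and their median difference was -0.15 where that of all genes was -0.03. Interquartile ranges were 2.45 to 2.89 on the melanoma arrays and 2.00 to 2.11 on the proliferation arrays. With arrays set to 1 interquartile range, 36 list genes were higher and 17 lower, beside 4370 and 3389 of all 19937 genes. Median centring gave 4850 higher and 2562 lower over all genes, in place of 4042 and 3724. Of the filament genes, nestin (Nes), an intermediate filament of neural progenitors, rose by 2.57 (SE 0.28, limma adjusted p = 0.000132), while Nefh, Ina and Prph, which build filaments with Nefl and Nefm, differed by -0.16, -0.22 and -0.29 and did not pass. Among peptide genes Penk, the enkephalin precursor, rose by 1.95 (SE 0.38), and the processing enzymes Cpe and Pam by 1.89 and 1.84. Others were lower, with Pyy at -1.6 (limma adjusted p = 0.00121) and the granule gene Scg3 at -1.3 (limma adjusted p = 0.00148). The list of tachykinin and NPY ligands, receptors and peptidases had 1 gene higher and 4 lower of 14. The peptide processing list had 2 higher and 1 lower of 10, and the other neuropeptides 3 higher and 1 lower of 12. The peptidase Ace, which can cleave substance P, rose by 1.87. The receptors Tacr1 and Npy1r differed by 0.37 and -0.31 and did not pass. Rest, the repressor of neuronal genes in other cells, differed by 0.96 (SE 0.38, limma adjusted p = 0.0677). 4 of the 10 lists had no gene lower, among them the Bex and Tceal family with 4 of 9 higher. Neurotrophic factors and receptors had 1 higher and 6 lower of 12, Ngfr being lower by 0.57 (SE 0.10, limma adjusted p = 0.00167). Gata3, a transcription factor of sympathetic neurons and of hair follicle keratinocytes, fell by 3.91 (SE 0.18), and all 8 keratinocyte markers fell. Other markers also moved in this comparison, with 8 of 12 melanocyte, 4 of 4 adipocyte and 2 of 4 skeletal muscle genes lower and 3 of 5 endothelial genes higher. Their part in the list counts was not tested.

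Cdkn2a/Braf melanoma against day 19 melanocytes gave 15 higher and 4 lower of the 130, or 11.5% and 3.08%, beside 7.17% and 5.46% of all genes, and the median difference was 0.01 beside -0.04. Penk rose by 6.58 (SE 0.50, limma adjusted p = 2.24e-05) and Nes by 3.45, Ace by 2.83 and the peptidase Mme by 2.82. Sort1, a sorting receptor for neurotrophins, fell by 3.12. L1cam, a cell adhesion molecule of axons, fell by 1.81. In the same comparison all 7 fibroblast and 4 of 5 endothelial markers were higher and 11 of 12 melanocyte markers lower, and their part was not tested. Without Cdkn2a/Braf melanoma replicate 1 the lower count was 2.

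Between the melanoma genotypes 3 list genes were higher and 5 lower in Cdkn2a/Braf/Lkb1 melanoma (2.31% and 3.85%, beside 1.83% and 0.732% of all genes), with a median difference of -0.16 beside -0.04. Galanin (Gal) rose by 1.93 (SE 0.39, limma adjusted p = 0.0314) and Kif5c, an axonal motor, by 1.12, and Crmp1, a protein of axon guidance, by 0.84. Astn2, a relative of the Brinp proteins in neuronal migration, fell by 2.44 (SE 0.23, limma adjusted p = 0.00122), opposite in sign to Brinp3. Crh differed by -1.43, Map2 by -1.46, Isl1 by -1.23 and Syt1 by -0.71, each past the test. Marker sums also differed. Leukocyte and macrophage markers summed to 3612 to 3818 in Cdkn2a/Braf/Lkb1 melanoma and 1544 to 1758 in Cdkn2a/Braf melanoma. Of these 7 genes, 1 was called higher. Mast cell markers summed to 397 to 812 against 1059 to 3171, with 1 of 4 called lower. Schwann cell markers summed to 552 to 841 against 1458 to 3120, with 1 of 10 called lower. The part of these cells in the list calls was not tested. Over all genes 364 were higher and 146 lower, and 147 and 144 with arrays set to 1 interquartile range. Without Cdkn2a/Braf melanoma replicate 2 the higher count was 0 and the lower 3; without Cdkn2a/Braf melanoma replicate 1, or without Cdkn2a/Braf/Lkb1 melanoma replicate 1, the lower count was 10. The calls of Gal, Kif5c, Crmp1, Map2 and Syt1 ended without Cdkn2a/Braf melanoma replicate 2.

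Day 50 against day 19 gave 16 higher and 3 lower (12.3% and 2.31%, beside 11.1% and 14.5% of all genes), and median centring gave 8 and 7. Over all genes 2211 were higher and 2884 lower, and 1034 and 3263 with median centring. The median difference was 0.30 for the list and 0.17 for all genes. Map1b and Mme rose by 1.97 and 1.79, Gata3 by 1.34 (limma adjusted p = 0.00346) and Gfra3 by 1.04 (limma adjusted p = 0.00466). Leaving aside the fits that omit an array, the calls of Gata3 and Gfra3 ended only with the compared groups fitted alone. Tubb3, a neuronal tubulin, fell by 3.11 (SE 0.96, limma adjusted p = 0.0393). Tubb3 was 9.86 and 6.50 at day 50, against 11.19 and 11.40 at day 19. Its call ended without either day 19 array and without day 50 replicate 2, which left a difference of -1.44. The call of Map1b ended without either day 19 array and without day 50 replicate 1 (0.90), and that of Mme without day 19 replicate 1 or day 50 replicate 2. The signal of other cells also moved at day 50. Higher were 6 of 7 fibroblast, 5 of 5 endothelial and 2 of 8 keratinocyte markers. Lower were 8 of 12 melanocyte markers, and the part of these cells was not tested. Without day 19 replicate 1 or 2 the higher count was 4 or 5, and the lower count was 0 without day 19 replicate 2 and 5 without either day 50 replicate. For Braf the lists gave 1 higher and 0 lower (0.769% and 0%, beside 0.236% and 0.0552%, with medians of 0.02 and 0.02), the gene being Cpe at 2.51 (SE 0.19, limma adjusted p = 0.00059), 9 of 130 having an unadjusted p under 0.05. Without day 19 Cdkn2a/Braf replicate 1, 3 were higher.

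**Figure D4:**
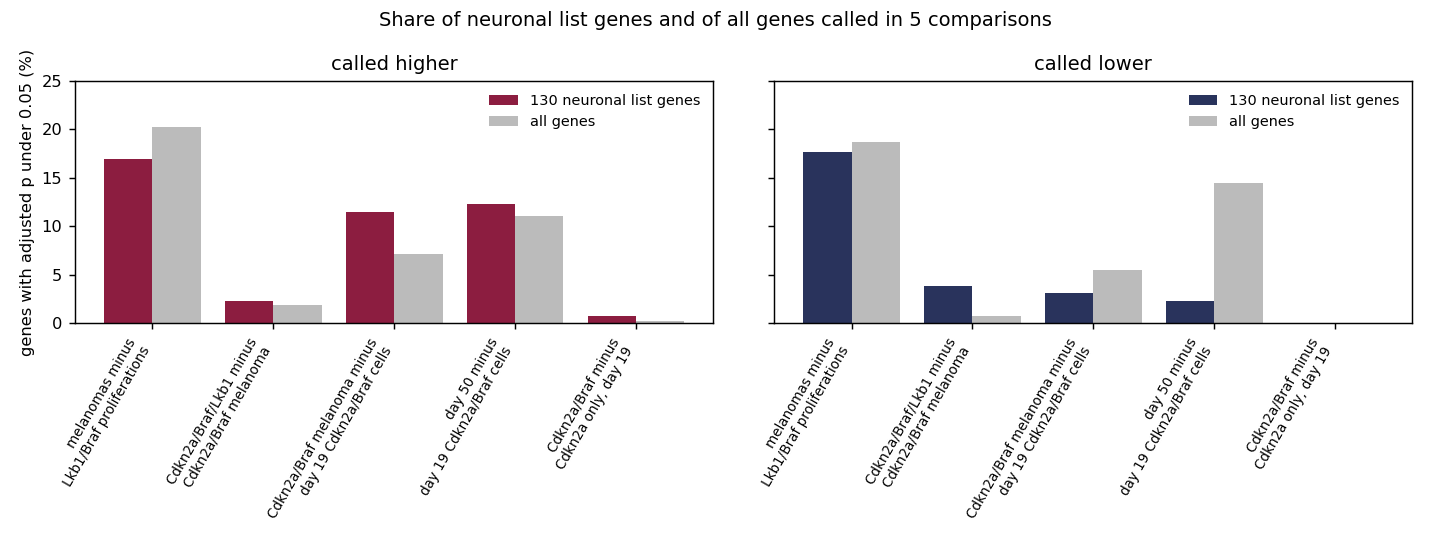
Share of the 130 neuronal list genes called higher and lower in each comparison beside the share of all 19937 genes (percent, limma adjusted p under 0.05). Without further scaling of the arrays, the list shares are 16.9% and 17.7% for melanomas against proliferations, near the 20.3% and 18.7% of all genes.

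The genes that ran most like each member over the 13 arrays were listed among 4039 non-member genes with a range of at least 2 on the log2 scale. Cftr, a chloride channel, was nearest to Nefl (r = 0.993) and to Gap43 (r = 0.990). Slc25a21 was nearest to Nefm (0.990) and Tac1 (0.983), Slc7a5, an amino acid transporter, to Npy (0.989), Asns, asparagine synthetase, to Bex1 (0.921) and Plaur, the urokinase receptor, to Brinp3 (0.981). Next in likeness came Ly75 and Cdh6 for Nefl, Vstm2a and Upp1 for Nefm, Vstm2a and Gm5150 for Gap43, and Upp1 and Lrrk2 for Tac1. For the others these were B3galt5 and Gal3st4 (Npy), Jade3 and Uck2 (Bex1), and Nrg1 and Lgi2 (Brinp3). Nefl and Nefm lie next to each other on chromosome 14, and their outer neighbours Dock5 and Adam7 had r of 0.16 with Nefl and 0.02 with Nefm. Zbtb20 beside Gap43 had r of 0.54 with it, and Rgs18 and Pla2g4a, on either side of Brinp3, each 0.62 with it. Asns, which lies beside Tac1 on chromosome 6, had r of 0.09 with Tac1 although it was the gene most like Bex1.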

How the data were processed

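Total RNA was amplified and labelled with NuGEN reagents and measured on 13 arrays, per the labels' protocols. The deposited intensities were made by the authors with RMA, per the submitters' processing notes, and its version and genome build are not given in the sources used here. They are linear (3.35 to 17698), although RMA gives log2 values, and how they became linear is not given. Levels were taken as log2(intensity + 1), and the number of arrays limits precision. Of 34760 probe sets 21640 name 1 gene, which gave 19937 genes, each by its brightest set on the log scale. Groups were compared with limma 3.58.1 in R 4.3.3, a model of 6 group means over 13 arrays (7 residual and 3.08 prior degrees of freedom), two-sided, adjusted by Benjamini-Hochberg at 0.05. Tables and plots used Python 3.11.15, pandas 2.3.3, numpy 2.4.6 and matplotlib 3.10.9. The fit was tested on simulated data.

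The members, the gene lists and the comparisons were chosen with earlier results of these data known. Named are the 7 members, at most 5 list genes per comparison and direction that passed, Nefh, Ina, Prph, Tacr1, Npy1r, Rest and Ngfr, markers, and the 3 genes most like each member. Replicate numbers did not pair samples (correlations of same-numbered deviations -0.12 to 0.09). Alternatives changed the pseudocount, scaling, filter, moderation, weights and arrays fitted, and left out each array in turn; a common interquartile range and a crossed block were chosen after seeing the data.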

Additional observations from a re-analysis of the deposited data

How the results depend on the processing

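Of the results that are counts or calls, 91 recomputed values were within 1.5 times and 21 were not, leaving aside the fits that omit an array. The causes were not tested, except that fitting the compared groups alone leaves few arrays. For day 50 against day 19, list genes higher numbered 16, and 8 with median centring, 9 with quantile normalization, 4 among genes above the median level, 5 with array weights, 0 with the groups alone and 8 with a replicate block; lower numbered 3, and 7, 1, 0 and 0 with median centring, quantile normalization, array weights and groups alone. Leaving out 1 array gave 4 to 22 and 0 to 5. For Braf, array weights gave 2 higher and groups alone 0, and leaving out 1 array 1 to 3. Between melanoma genotypes, higher counts were 0 above the median level, 0 with groups alone and 1 with a replicate block (0 to 4 without 1 array); lower counts were 3 with quantile normalization, 1 above the median level and 0 with groups alone (3 to 10). For melanomas against proliferations, a common interquartile range gave 36 higher, and quantile normalization 14 and the median filter 7 lower (17 to 22 and 17 to 27 without 1 array). For Cdkn2a/Braf melanoma against day 19, leaving out 1 array gave 10 to 14 higher and 2 to 4 lower. With crossed numbers the replicate block called 240 higher and 93 lower genes between the melanoma genotypes, against 193 and 66 with the numbers as given and 364 and 146 with no block. Median centring turned Nefm for Braf to -0.02, and a common interquartile range turned Cpe and Tceal9 for day 50 against day 19 to 0.42 and 0.52. The same scaling turned the day 50 minus day 19 differences of 4 members, to -0.39 for Nefl, -0.04 for Nefm, -0.60 for Tac1 and -0.19 for Brinp3. Nefl also turned with quantile normalization (-0.14) and without day 19 replicate 1 (-0.04). With 16 in place of 1 added to each intensity, Tac1 for melanomas against proliferations went to 3.98. Bex1 for day 50 against day 19 went to -3.73. Dim probe sets may limit how low Tac1 and Bex1 can be read, which was not tested.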

Other observations

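Among all 19937 genes, the widest empty interval between the 4 melanoma arrays and the other 9 belonged to Crabp1, a retinoic acid-binding protein, at 3.42 on the log2 scale. Tac1 was next at 3.07, then Stc1, a secreted glycoprotein, at 3.00 and Cadps, a priming factor of dense-core vesicles, at 2.89. After these came Slc14a1 (2.87), Upp1 (2.83), the axon guidance ligand Sema3a (2.69) and Armcx4 (2.54). Nefm had 2.35, Neto2 2.34 and the mechanosensitive channel Piezo2 2.32. These genes were chosen after their values were seen. Within the Cdkn2a/Braf melanoma pair, the widest excess of replicate 1 was that of Aldh1a2, a retinoic acid-making enzyme, at 3.32, followed by Nefl at 3.14, with the muscle genes Tnnt3 (2.92) and Tnnc2 (2.74) close behind.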
